A study of Mus musculus with 16 samples.

Results

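The Ifng region comprised every H3K27ac and DNase island on mouse chromosome 10 from 117780001 to 117960000 (build mm9), a stretch of 180 kb that holds Ifng, the gene for interferon gamma, near its middle. An island is a stretch of the genome that the authors' peak caller found enriched in 1 library. The members were chosen by position alone. They numbered 31 of the 469755 islands in all 16 lists, with 8 of H3K27ac and 23 of DNase. The cells were CD4 T cells of Bcl11b[fl/fl]-CreERT2 mice on a C57BL/6 background, cultured towards the T helper 2 (Th2) fate. All groups carried the floxed alleles and the Cre fusion, a recombinase that works only once 4-hydroxytamoxifen (4-OHT) is given, and differed in stage and in treatment with 4-OHT. Early WT cells had 4 days of Th2 culture without 4-OHT, and early KO cells the same 4 days with 4-OHT. Late cells had 4 days of Th2 culture without 4-OHT, a rest of 1 day in medium with IL-2 and a second Th2 culture of 4 days, without 4-OHT (late WT) or with it (late KO). Deletion of Bcl11b, a zinc finger factor of T cells, was thus aimed at the first or the second culture. Each of these 4 groups had 2 libraries of H3K27ac ChIP-seq, which marks active promoters and enhancers, and 2 of DNase-seq, which marks open chromatin.

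Genotype and exposure to 4-OHT cannot be told apart, because no cells that kept Bcl11b were given 4-OHT. Early and late KO cells differ both in stage and in the culture that received 4-OHT. These cannot be told apart either. By the labels the starting cells were naive, but the sort they record is for high CD44, which marks activated cells. They do not say that the replicates were separate cultures or animals, so a p-value reflects only how far these libraries scatter, and that scatter may be technical. The deletion of Bcl11b and the markers of the cell type were not checked here, since no gene annotation of mm9 was used. An H3K27ac list had 26548 to 32112 islands over 100.9 to 111.7 Mb. A DNase list had 17397 to 39736 islands over 25.9 to 66.8 Mb, and both late KO lists were the shortest, with 18812 and 17397 islands. The files give no read counts, so the sequencing depth is unknown, and where no island is listed the chromatin may still hold some signal.

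Interferon gamma is the signature cytokine of Th1 cells and of natural killer and cytotoxic T cells, and it activates macrophages. Th2 cells, which make IL-4, IL-5 and IL-13 under the control of GATA3, keep the gene silent. In Th1 cells the T-box factor T-bet drives it through conserved noncoding sequences (CNS) spread over many kb on both sides of the gene, each named by its distance from the gene start. CTCF, a protein that anchors chromatin loops, binds at the borders of the domain and within the gene. In RefSeq's GRCm38.p6 annotation Il22, its near copy Iltifb and a row of pseudogenes lie on the upstream side of Ifng, and the noncoding gene Ifngas1 on the downstream side. By its title the study concerns Bcl11b as a partner of GATA3 and its part in the Th1 and Th2 programmes, of which Ifng is a Th1 gene.

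The promoter is shown as the place where transcription of Ifng starts, and it lies in a wider stretch at which no island was listed in any library. The sequence holds the 250 bases before the start of Ifng, from RefSeq's GRCm38.p6 (chr10:118440796-118441045, plus strand), with matches to the motifs named below in capitals.

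Ifng promoter: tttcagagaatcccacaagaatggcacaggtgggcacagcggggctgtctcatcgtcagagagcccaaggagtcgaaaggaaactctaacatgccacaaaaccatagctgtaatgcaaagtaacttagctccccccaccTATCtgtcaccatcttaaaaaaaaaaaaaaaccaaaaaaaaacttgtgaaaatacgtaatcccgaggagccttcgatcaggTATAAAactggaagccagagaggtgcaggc

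Both strands were searched for 4 motifs. A TATA box (TATAAA), the element that places the start of transcription, begins at position -30 from the gene start. The core letters GATA of the site bound by GATA factors match on the reverse strand, as TATC from position -111. The RUNX letters TGTGGT and the T-box half-site letters GGTGTG are not in this window. Among the 32851 promoters of that table, cut to the same 250 bases, 12.4% held the TATA letters, 53.6% the GATA core, 14.0% the RUNX letters and 16.3% the T-box letters. A match of letters is a description and not evidence of binding.

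No island of either assay lay over Ifng in any of the 16 lists. The gene lies near 117878001 to 117883000 in mm9, a position known here to the nearest kb, so distances below carry an error of that size. Around it 50.4 kb, from 117857001 to 117907400, held no island in any list. This stretch began 21.0 kb before the gene and ended 24.4 kb after it. Promoter, exons, introns and the sites of CNS-6 and CNS+17-19 all fall inside it. The islands of the region lay at 5 places on both sides of this gap, and 1 of those places carried both H3K27ac and open chromatin. Outside them, 78.0 kb before the first site and 79.0 kb after the last were also free of islands in all lists.

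**Figure D1:**
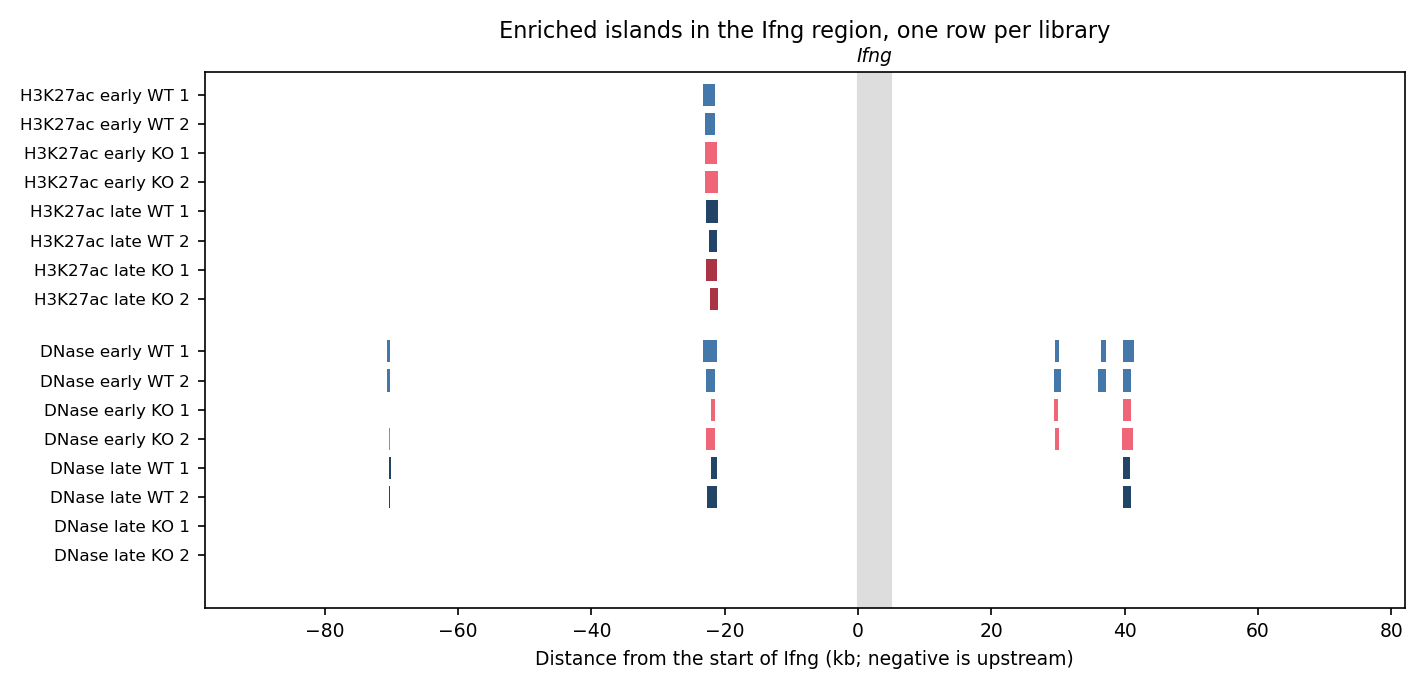
Islands of the Ifng region in each of the 16 libraries (rows, labelled by assay, stage, genotype and replicate), against distance from the start of Ifng in kb, with the gene in grey. H3K27ac was listed at 1 place, 22.1 kb upstream, in all 8 libraries, while DNase islands were listed at 5 places in early WT and at none in late KO.

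Of 11 elements known by their distance from the gene start, 3 had an island within 2 kb of that distance and 8 had none. The match is by distance only. The 3 were CNS-22, an enhancer bound by T-bet in Th1 cells, CNS+29, and the upstream CTCF site near -70 kb. The elements with no island in any list were CNS-54, CNS-34, CNS-6, CNS+17-19, CNS+46, CNS+55 and the CTCF sites in the gene near +1 kb and downstream near +66 kb. DNase islands 36.6 and 40.5 kb downstream matched no name in this list.

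H3K27ac in the region was confined to the CNS-22 site in these 8 lists. All 8 libraries held 1 island there, and together these spanned 117854801 to 117857000. The early islands measured 1.8 and 1.6 kb for WT and 1.8 and 2.0 kb for KO (replicates 1 and 2). The late ones measured 1.8 and 1.2 kb for WT and 1.6 and 1.2 kb for KO. The ranges of the genotypes overlapped at each stage. All 8 islands shared the 0.8 kb from 117855801 to 117856600. Presence in all 8 libraries was common, since 51.2% of the 35909 merged H3K27ac regions of the genome had it. The islands were weak within their lists: by the authors' score they stood between percentile 10.9 and 36.6, with a median of 23.1, so that none was in the upper 50% of its list.

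The test compared groups of libraries in the kb of the region covered by islands (limma on log2(kb + 0.5)). All 180-kb windows of the genome with islands in at least 2 libraries were fitted together. The fit gave the estimate of the spread and the Benjamini-Hochberg adjustment over these 7256 windows. Shares of windows called are over the windows tested. Mean coverage in early cells was 1.7 ± 0.14 kb for WT and 1.9 ± 0.14 kb for KO (SD, n = 2 libraries each). The log2 difference, KO minus WT, was 0.01 ± 0.22 (SE, limma adjusted p = 0.985), in a comparison in which 26.9% of windows were called. In late cells the means were 1.5 ± 0.42 kb for WT and 1.4 ± 0.28 kb for KO (SD, n = 2 libraries each), a log2 difference of -0.14 ± 0.22 (SE, limma adjusted p = 0.791), where 9.55% of windows were called. Neither log2 difference exceeded its standard error, although the early means differed by more than the SD of either group in kb. Neither the difference of the KO effects between stages (limma adjusted p = 0.827, 9.25% of windows called) nor their average (-0.06 ± 0.15, limma adjusted p = 0.781, 29.9% called) passed the threshold. The log2 change from early to late was -0.13 ± 0.22 in WT (limma adjusted p = 0.706, 30.4% called) and -0.27 ± 0.22 in KO (SE, limma adjusted p = 0.446, 17.1% called). In the finer fit the only 10-kb bin of the region with H3K27ac, 117850001 to 117860000, was not called in any comparison, and its unadjusted limma p was above 0.05 in each. Of the H3K27ac bins tested over the genome, 14.6% were called for KO against WT in early cells, 6.75% in late cells and 18.2% over both stages, and 10.1% for the difference of the KO effects. From early to late cells 16.3% were called in WT and 9.6% in KO.

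Over both stages the region held 1.65 ± 0.34 kb of H3K27ac in KO and 1.60 ± 0.28 kb in WT (SD, n = 4 libraries each, two-sided exact permutation p = 1). It held 1.45 ± 0.30 kb in late and 1.80 ± 0.16 kb in early cells (SD, n = 4 libraries each, two-sided exact permutation p = 0.2000). With 4 libraries against 4 this test cannot go below 0.0286. It shuffles libraries without regard to the other factor, so a difference in that factor counts as spread. A feature singled out after the values were seen was the upstream edge of the island. Measured from the start of Ifng, it lay at -23.2 to -23.0 kb in the 4 early libraries and at -22.8 to -22.2 kb in the 4 late ones, with no overlap. Island edges fall on steps of 0.2 kb, so the nearest early and late edges, at -23.0 and -22.8 kb, were as close as separate edges can be. Of the 14296 H3K27ac regions with 1 island in each of the 8 lists, 2.01% had all late upstream edges past all early ones in this direction along the chromosome. The downstream edge lay between -21.4 and -21.0 kb, with the stages overlapping.

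**Figure D2:**
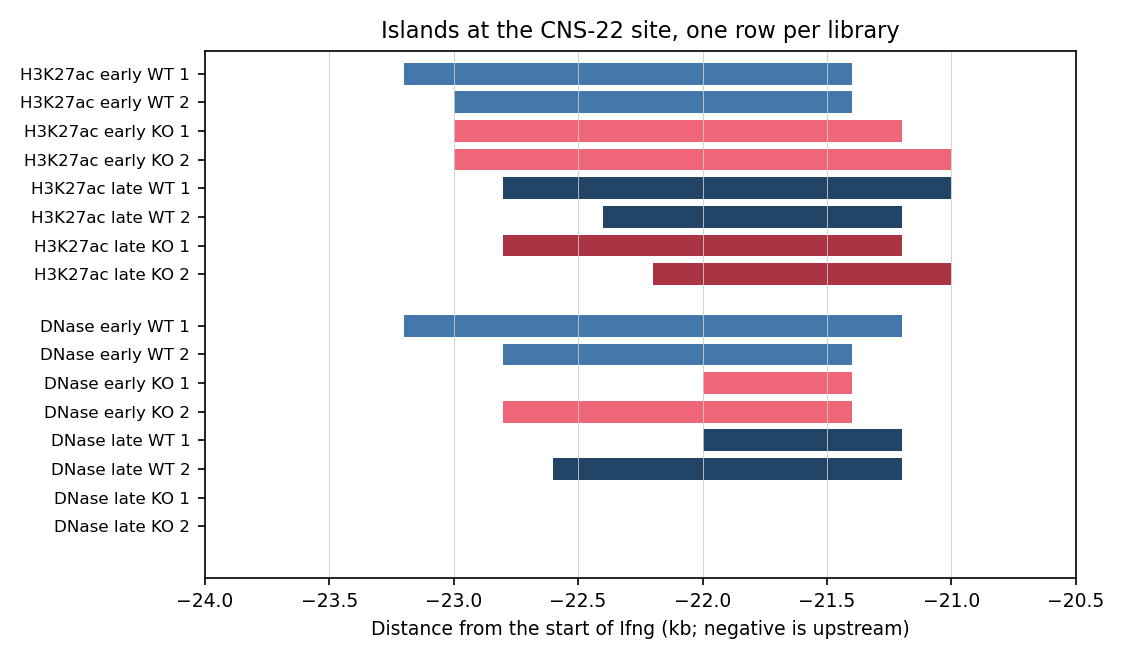
Extent of the islands at the CNS-22 site in each library (rows), against distance from the start of Ifng in kb. The upstream edges of the H3K27ac islands lie at -23.2 to -23.0 kb in early cells and at -22.8 to -22.2 kb in late cells, and the DNase islands of 6 libraries lie over the same place.

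Open chromatin was listed at more sites in early WT than in any other group, and at none in late KO. Early WT libraries held 5 islands each in the region and covered 5.4 and 5.2 kb. Early KO libraries held 3 and 4 islands and covered 2.4 and 3.8 kb. Late WT libraries held 3 each and covered 2.2 and 2.8 kb, and late KO libraries held none and covered 0.0 kb. The early WT values lay above those of every other group, early KO and late WT overlapped, and the late KO values lay below all others. The whole DNase lists also covered most in early WT, 56.5 ± 14.5 Mb, and least in late KO, 26.0 ± 0.2 Mb, against 40.3 ± 12.7 Mb for early KO and 48.5 ± 5.4 Mb for late WT (SD, n = 2 libraries each). The part of list length in the results below was examined by reducing all lists to 1 length and by changing how libraries were centred or normalized. Whether list length causes the differences was not tested.

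**Figure D3:**
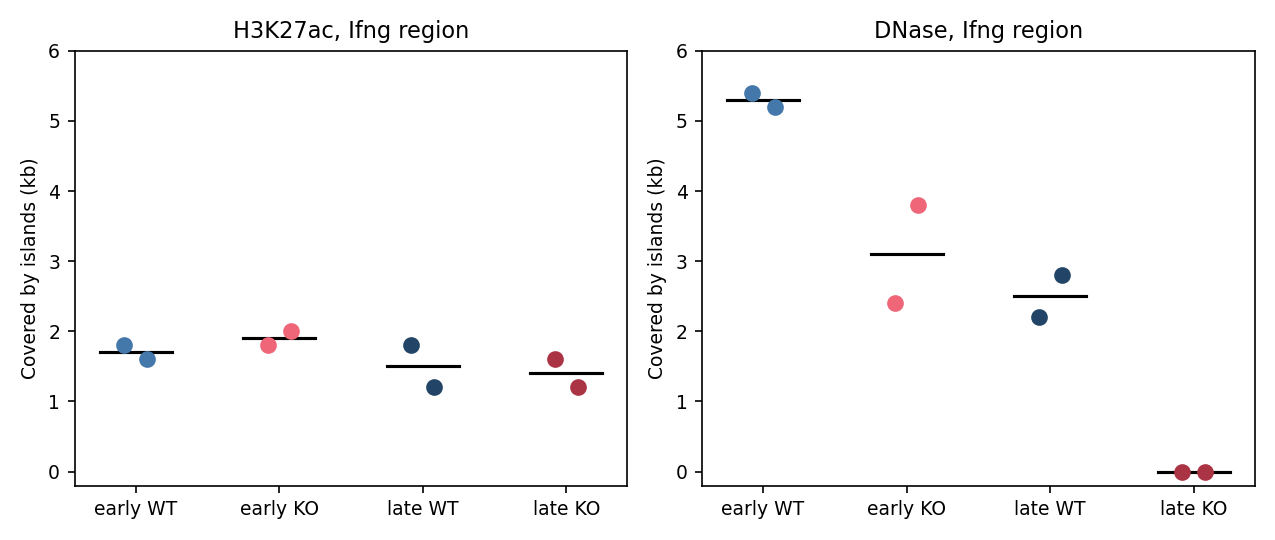
Length of the Ifng region covered by islands, in kb, for each library (points, 2 per group) with the group mean (line), for H3K27ac (left) and DNase (right). H3K27ac stays between 1.2 and 2.0 kb in all groups, while DNase spans 5.4 kb in early WT to 0.0 kb in late KO.

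The CNS-22 site was open in 6 libraries and absent from both late KO lists. Its DNase island measured 2.0 and 1.4 kb in the early WT libraries, 0.6 and 1.4 kb in the early KO ones and 0.8 and 1.4 kb in the late WT ones (replicates 1 and 2). All 6 islands shared the 0.6 kb from 117856001 to 117856600, which lies within the bases that all H3K27ac islands shared. They stood between percentiles 0.2 and 39.7 of their lists, and the lowest was that of early KO replicate 1. Late KO cells kept the H3K27ac island at this site in both libraries, 1.6 and 1.2 kb wide.

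The site 40.5 kb downstream had the highest median percentile by score of the 5 open sites, 54.6. Its islands reached percentiles 55.3 and 64.2 in early WT, 32.6 and 69.0 in early KO and 13.1 and 54.0 in late WT. Their widths were 1.6 and 1.2 kb (early WT), 1.2 and 1.6 kb (early KO) and 1.0 and 1.2 kb (late WT), and late KO had none. Together with CNS-22 it made 2 of the 5 DNase sites that were listed in all 6 other libraries and in neither late KO library, a pattern of 6.35% of the 47976 merged DNase regions in the genome. Neither this site nor any other open site apart from CNS-22 had H3K27ac in any library.

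The site at the distance of the upstream CTCF element, 117807401 to 117808000, gave the narrowest islands, of 200 to 400 bp. It was listed in both early WT, 1 early KO, both late WT and no late KO library. With it, 3 of 5 sites were in both late WT and neither late KO list, against 16.3% of DNase regions in the genome. The opposite pattern, both late KO and neither late WT, had no site here and 0.721% of regions in the genome. The early KO library that lacked this one, replicate 1, had the shorter of the early KO lists (24286 and 37956 islands).

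The CNS+29 site, 29.9 kb downstream at 117907401 to 117908400, was listed in early cells alone. It appeared in all 4 early libraries, 0.6 and 1.0 kb wide in WT and 0.6 and 0.6 kb in KO, and in no late library of either genotype. Of DNase regions in the genome, 1.12% had this pattern. Its islands stood at percentiles 1.8 and 31.3 in early WT and 27.4 and 58.0 in early KO. The site 36.6 kb downstream was listed in both early WT libraries alone, 0.8 and 1.2 kb wide, at percentiles 26.7 and 1.7. In the genome 4.03% of DNase regions were listed in both early WT libraries alone, and 8.71% in both early WT and neither early KO library.

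In windows of 180 kb (limma, adjusted over 7536 windows), open chromatin of the region was called lower in late KO than in late WT. Coverage was 2.5 ± 0.42 kb in late WT and 0.0 kb in both late KO libraries (SD, n = 2, limma adjusted p = 0.0375), in a comparison in which 3.56% of windows were called and 2.59% called lower. The genome's calls were 73 higher and 195 lower, and without centring of the libraries 19 higher and 713 lower. With lists of equal length they were 124 higher and 59 lower. Leaving out late WT replicate 1 gave 16 higher and 13 lower calls. Leaving out replicate 2 of that group gave 20 and 12. No fold is given because late KO is listed at 0, where the pseudocount and not the spread of libraries sets the value. Of the 6146 windows with an island in all 6 other libraries, 5.68% had none in either late KO library. Leaving out 1 library at a time ended the call for both early WT, both early KO, both late WT libraries and late KO replicate 2 (limma adjusted p = 0.0505 to 0.175). It held without late KO replicate 1 (0.0354). It was also lost with lists of equal length. With every list reduced to its 17397 islands of highest score, late WT kept 0 and 1 islands in the region, 0.0 and 1.2 kb, and late KO kept 0 and 0 (limma adjusted p = 0.719). A group left with 1 library is assumed to vary like the others.

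The plot of ranks shows what the shorter lists would leave. Reduced to 17397 islands, the lists kept the site at 40.5 kb in both early WT, both early KO and 1 late WT library, and the CNS+29 site in 1 early KO library. The CNS-22, CTCF and 36.6-kb sites were kept in none. Some islands lay close to the cut on either side. In late WT replicate 1 the CNS-22 island was dropped at percentile 36.4, against a cut at 36.5. In late WT replicate 2 the island at 40.5 kb was kept at percentile 54.0, against a cut at 52.9.

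**Figure D4:**
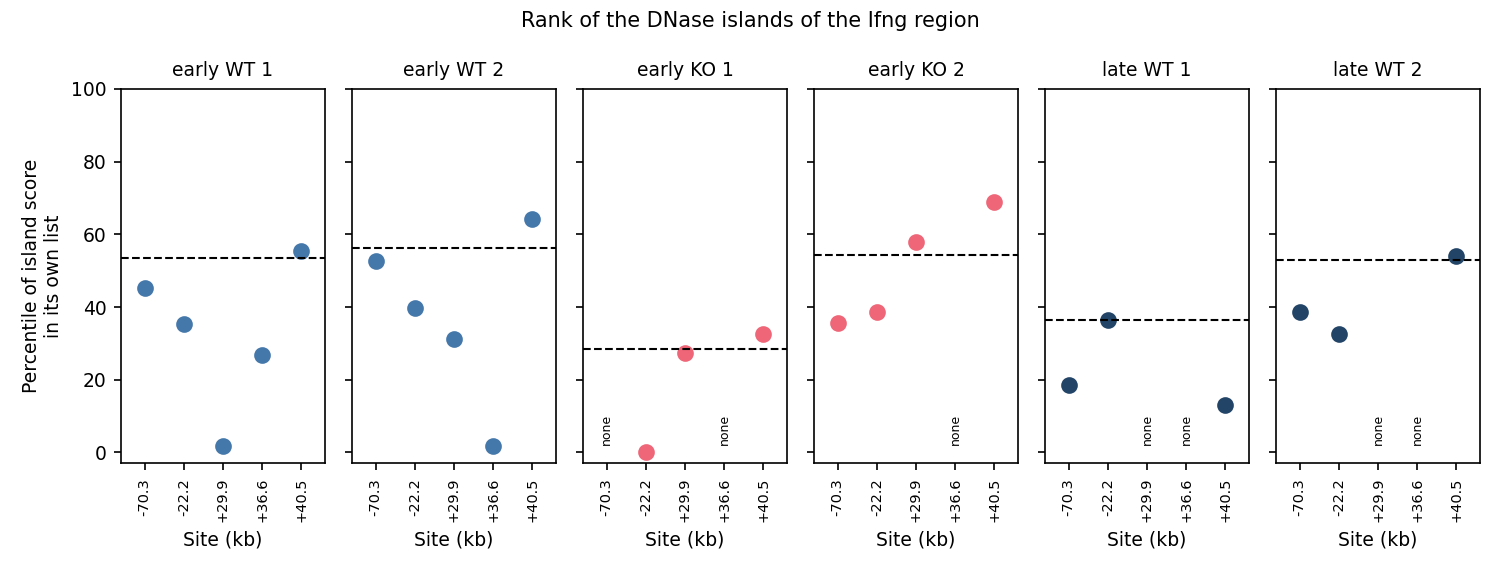
Percentile of each DNase island of the Ifng region by the authors' score within its own list, for the 6 libraries that held any (panels), by site in kb from the start of Ifng. The dashed line is the percentile below which islands are dropped when all lists are reduced to the length of the shortest (17397 islands), and the points above it are those of the site at 40.5 kb in 5 libraries and of the site at 29.9 kb in 1.

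In early cells the KO and WT windows did not differ past the threshold. DNase coverage was 5.3 ± 0.14 kb for WT and 3.1 ± 0.99 kb for KO (SD, n = 2 libraries each), a log2 difference of -0.22 ± 0.40 after libraries were centred (SE, limma adjusted p = 0.906, 0.212% of windows called). The KO effects of the 2 stages did not differ past the threshold either (limma adjusted p = 0.343, with 0 of 7536 windows called and 841 at an unadjusted p under 0.05). With the stages averaged, the KO change was not called (limma adjusted p = 0.0861, 3.56% called). Over both stages the region held 1.55 ± 1.88 kb in KO and 3.90 ± 1.64 kb in WT (SD, n = 4 libraries each, two-sided exact permutation p = 0.1429). The shuffle ignored stage, so the difference between stages counts as spread in this p and in the SDs. At each stage both KO libraries covered less than both WT libraries.

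Listed open chromatin of the region was called lower in late than in early KO, and the lower coverage of late WT was not called. Late KO cells had their first culture without 4-OHT, so they do not continue the early KO cells. Stage and time of deletion change together in this comparison. KO coverage was 3.1 ± 0.99 kb in early cells and 0.0 kb in both late libraries (SD, n = 2, limma adjusted p = 0.0106), where 4.71% of windows were called and 3.93% called lower. That call was lost without early KO replicate 1 or 2 (adjusted p = 0.0672 and 0.0652) and with lists of equal length (0.121). WT coverage went from 5.3 ± 0.14 to 2.5 ± 0.42 kb (SD, n = 2 per group), a log2 change of -0.77 ± 0.40 (SE, limma adjusted p = 0.525, 0.212% called). The changes in KO and in WT did not differ past the threshold, by the test given above for the KO effects (limma adjusted p = 0.343). Both comparisons with late KO use the same late KO libraries. Over both genotypes the region held 1.25 ± 1.46 kb in late and 4.20 ± 1.40 kb in early cells (SD, n = 4 libraries each, two-sided exact permutation p = 0.0571). This shuffle ignored genotype in the same way. In each genotype both late libraries covered less than both early ones.

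Of the 18 bins of 10 kb in the region, 4 held DNase islands in at least 2 libraries and were tested, and 1 was called in 1 comparison. Of the DNase bins tested over the genome, 1.23% were called for KO against WT in early cells, 2.16% in late cells and 1.55% over both stages, and 0 for the difference of the KO effects. From early to late cells 2.71% were called in WT and 2.45% in KO. These shares rest on single libraries and on the design: without either early WT library no bin of the genome was called in any comparison. With the replicate block, late KO against WT went from 811 to 96 called bins and late against early KO from 920 to 132. The bin from 117910001 to 117920000, which holds the sites at 36.6 and 40.5 kb, covered 1.2 and 1.6 kb in early KO and 0.0 kb in both late KO libraries (limma adjusted p = 0.0382). Of the bins tested over the genome, 2.25% were called lower in that comparison. The call was lost without any 1 of the 8 libraries (limma adjusted p = 0.0591 to 0.134) and with the replicate block (0.0797). Late KO against late WT gave 0 called bins in the region and 2 with an unadjusted p under 0.05. These were the same bin (limma adjusted p = 0.0869) and the CNS-22 bin (0.197), where 1.81% of bins were called lower. The CNS+29 bin, from 117900001 to 117910000, covered 0.6 and 1.0 kb in early WT and 0.0 kb in both late WT libraries (limma adjusted p = 0.0763, 2.12% of bins called lower). The bins over Ifng itself held no island and could not be tested.

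Open chromatin and H3K27ac met at CNS-22 alone. In early WT 1 of 5 DNase regions overlapped H3K27ac of the same stage and genotype by at least 1 bp, in early KO 1 of 4 and in late WT 1 of 3. Over the genome 65.3%, 77.5% and 76.5% of DNase regions did so in these groups. In late KO the region had no DNase island to compare, and 91.0% of the genome's DNase regions overlapped H3K27ac.

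Among tested windows, the region was poor in H3K27ac and nearer the middle in open chromatin. Windows with islands in fewer than 2 libraries of an assay were not tested and are left out of these ranks. Its mean H3K27ac coverage of 1.62 kb compared with a median of 8.28 kb over tested windows, and 13.1% of tested windows had less. Its mean DNase coverage of 2.73 kb compared with a median of 3.95 kb, and 38.8% of tested windows had less. The next 180 kb downstream had no H3K27ac island in any library, and its DNase coverage was 3.0 and 3.4 kb (early WT), 1.0 and 5.4 kb (early KO), 2.0 and 2.4 kb (late WT) and 0.0 kb in both late KO libraries. In the 180 kb upstream, it was 3.6 kb in both early WT libraries, 1.8 and 2.6 kb (early KO), 2.4 and 3.4 kb (late WT) and 0.6 and 1.2 kb (late KO). Late KO thus had the least open chromatin in all 3 neighbouring stretches. H3K27ac in the upstream stretch was 0.0 and 2.2 kb (early WT), 2.4 and 2.6 kb (early KO), 2.2 and 2.8 kb (late WT) and 3.8 and 2.2 kb (late KO).

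The windows most like the region in H3K27ac over the 8 libraries lay on chromosome 2 at 31560001 to 31740000 (Pearson r = 0.99), chromosome 14 at 27420001 to 27600000 (r = 0.96) and chromosome 8 at 118860001 to 119040000 (r = 0.94), among 7147 windows with at least 0.25 of its coverage. They covered 7.6 to 10.6, 10.2 to 13.0 and 0.8 to 2.2 kb in turn, against 1.2 to 2.0 kb in the region. Likeness here means correlation over the libraries and not equal amounts. In DNase the most similar, among 6651 windows, were on chromosome 18 at 69180001 to 69360000, chromosome 7 at 74760001 to 74940000 and chromosome 2 at 135420001 to 135600000 (r = 0.99 for each over 8 libraries). These values share the libraries and their list lengths and are descriptions.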

How the data were processed

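The submitters' processing notes name CASAVA 2.18, Bowtie2, SICER 1.1 and mm9, with no roles. The authors deposited 1 list of islands per library, with a score for each island. The caller's gap, control and read numbers are not given in the sources used here. Scores served here to place an island among those of its own list and to shorten lists. Coordinates are 1-based.

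Islands of the 8 libraries of an assay that overlapped or touched were merged into sites. The kb covered in windows of 180 kb, 1 of them the Ifng region, and in bins of 10 kb were taken as log2(kb + 0.5) for features covered in at least 2 of 8 libraries, centred on the median of features covered in all 8, and fitted over the genome with limma 3.58.1 (4 groups, eBayes with a trend). Calls needed a Benjamini-Hochberg adjusted p under 0.05. The fit was run on simulated data with changes in early KO alone, so calls that rest on late KO were not tested that way. Sites with islands in at least 2 libraries and called bins were named, with edges and flanks added after the values were seen. The region and lists were chosen with earlier results of these data known. Alternatives were other centring, list lengths, pseudocount, filter, bin grid, merging, overlap, a replicate block and each library left out. Python 3.11.15 and R 4.3.3 were used. Lists of other Th1 and Th2 genes were not used, for want of an mm9 annotation. The promoter came from RefSeq's GRCm38.p6 table, and its coordinates were not set beside those of the islands.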

Additional observations from a re-analysis of the deposited data

How the results depend on the processing

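Depth is unknown and only list length stands in for it. For DNase, late KO against late WT over the whole region (limma adjusted p = 0.0375) was not called with quantile normalization (0.0575), lists of equal length (0.719), a pseudocount of 2 kb (0.247) or the upper 50% of each list by score (0.99, with the sign turned). With 1 library left out it ranged from 0.0354 to 0.175. Late against early KO (0.0106) was lost with equal lists (0.121), the upper 50% (0.655) and the larger pseudocount (0.071), and ranged from 0.00805 to 0.0672. The genotype average (0.0861) was called without centring (0.0343). Uncalled DNase differences turned sign for early KO against WT with equal lists (0.816; 0.847 to 0.999 with 1 library left out) and for the difference of KO effects with the upper 50% (0.911). Without centring the median DNase window moved to -0.79 for late KO against late WT. Windows called higher and lower in late against early KO, 59 and 296, became 92 and 84 with equal lists, 30 and 203 with the upper 50% and 55 and 166 with the larger pseudocount. They fell to 0 and 0 without early KO replicate 1 and to 7 and 20 without early KO replicate 2, and to 29 and 135 or 30 and 134 without an early WT library. Without late KO replicate 1 they were 143 and 500. All called windows for late KO against WT, 268, ranged from 29 to 610 with 1 library left out.

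The count of called DNase bins for late against early KO, 1, became 2 without centring and 0 with quantile normalization, equal lists, the upper 50%, the larger pseudocount, bins shifted by 5 kb and each library left out. Without centring 1 bin was called for each of late KO against WT, the genotype average and late against early WT, and shifted bins gave 1 for the last. Equal lists left 2 of 5 DNase sites: 0 in all libraries but late KO, 0 in both late WT and neither late KO, 0 in early cells alone and 0 in early WT alone. In those lists fewer islands remain by construction. For the other changes the cause was not tested.

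H3K27ac differences were not called under any of these settings. Signs turned for the average without centring (0.901; 0.369 to 0.948 with 1 library left out) and for early KO against WT with quantile normalization (0.618) and the larger pseudocount (0.888; 0.916 to 0.999 with 1 library left out). Leaving out 1 library also turned signs for late KO against WT (0.402 to 0.966), the difference of KO effects (0.507 to 0.968), late against early WT (0.29 to 0.883) and the kb covered, KO minus WT (-0.08 to 0.20 kb). The upper 50% of the H3K27ac lists held no island of the region and gave no value.

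Little sign of pairing by replicate number was seen: replicate differences correlated between groups at -0.018 to 0.066 (H3K27ac windows) and -0.017 to 0.105 (DNase windows). These values cannot settle whether libraries of the same number shared an animal or a culture, which the labels do not say. With the replicate block the DNase calls for late KO against late WT (0.0488) and late against early KO (0.0152) held, while called bins for the latter went from 1 to 0 (0.0797). Over the genome the block took called DNase bins for KO against WT from 462 to 0 in early cells, 811 to 96 in late cells and 581 to 8 on average, and from 1018 to 0 for late against early WT.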
